A study of Mus musculus with 84 samples.

Results

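Dividing cells were looked for among WT MMC9s, mucosal mast cells of the small intestine that can produce IL-9, and were chosen by their reads of Mki67 and Top2a. Of 81 sequenced cells, 68 were kept because they had at least 10000 reads in genes, under 20% of reads from mitochondrial genes (mt-) and under 10% from immunoglobulin genes. A kept cell with 10 or more reads of Mki67 or of Top2a was placed in the first group, with 18 cells, and one with fewer than 10 reads of both in the second, with 50 cells. They are called Mki67/Top2a+ and Mki67/Top2a- cells here, because the number of other mitotic genes detected did not set all of the first apart, as described next.

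The cells came from BALB/c WT mice that were sensitized with ovalbumin and alum and then challenged orally with ovalbumin, and the sort took Lin- cells that were c-Kit+ and ST2+, IL-4GFPhigh, IL-17RB2- and low in β7-integrin. No animal is named for any cell, so all cells form 1 sample: no test across animals could be made, and every value describes these cells only. The series also holds 3 bulk MMC9 libraries of BALB/c background, 1 each for WT, IL4raY709F (a gain-of-function IL-4 receptor alpha chain) and IL4ra-/-. For these, progenitors from the bone marrow of each genotype went into ovalbumin-sensitized WT hosts, 7 oral challenges followed at 3 per week, and RNA of 12 to 20 biological replicates was pooled.

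Cell division runs through a programme of transcripts that are made in order. Genes for DNA replication are switched on by E2F factors at the entry into S phase, and genes for chromosome segregation later, in G2 and mitosis, through promoter elements known as CHR and CCAAT boxes that are bound by the MuvB complex with B-MYB or FOXM1 and by NF-Y. Mki67 encodes a protein that coats mitotic chromosomes, and Top2a encodes the topoisomerase that untangles replicated DNA. Mast cells differ from most granulocytes in that mature cells and their tissue progenitors can still divide.

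Mki67 and Top2a chose the groups, so their levels are given as a description. Mki67 ranged from 0 to 1839 reads scaled to a common total of gene reads (CPM) in the Mki67/Top2a+ cells (median 315) and reached 7.63 CPM at most in the others. Top2a ranged from 0 to 3474 CPM (median 213) and reached 4.81 CPM at most in the others. Both genes passed 10 reads in 10 cells, Mki67 alone in 5 and Top2a alone in 3. The limit fell in a gap: the lowest cell inside it had 70 reads (cell 55, Top2a) and the highest outside it had 7 (cell 7, Mki67). Among the 50 Mki67/Top2a- cells, 22 had no read of either gene. The plot of the rule genes shows the 5 cells with Mki67 alone along one axis and the 3 cells with Top2a alone near the other.

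**Figure D1:**
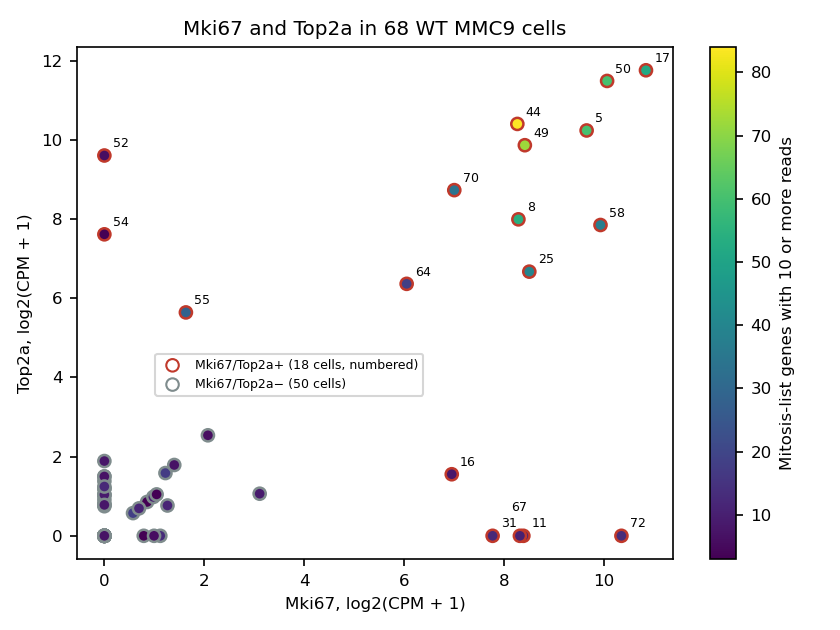
Mki67 against Top2a in each of the 68 kept cells, both as log2(CPM + 1), with the colour giving the number of 101 other mitotic genes with 10 or more reads. The 18 Mki67/Top2a+ cells are ringed in red and numbered. The 10 cells with both genes lie to the upper right, and the cells with Mki67 alone have 8 to 13 mitotic genes.

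A list of 101 mitotic genes without Mki67 and Top2a was counted in each cell, a gene being called detected at 10 reads or more. Mki67/Top2a+ cells held 3 to 84 of them (median 31) and Mki67/Top2a- cells 3 to 23 (median 7). In 10 of the 18 cells the number exceeded that of every Mki67/Top2a- cell, and the other 8 fell inside their range. Those 8 were all 5 cells with Mki67 alone (8 to 13 genes), 2 of the 3 with Top2a alone (cell 54 with 3 genes and cell 52 with 6) and cell 64, which had both rule genes and 18 mitotic genes. By this count 10 cells stood apart from the Mki67/Top2a- cells and 8 did not. Single transcripts still set some of these 8 cells apart. In cell 64 Cenpe had 401 CPM and Kif15 102 CPM, both above every Mki67/Top2a- cell. Ckap5 had 698 reads in cell 11, against at most 321 in any Mki67/Top2a- cell. The cell with most mitotic genes among Mki67/Top2a- cells was cell 22, with 23. Summed over the list, mitotic transcripts reached 1063 to 31700 CPM in the first group (median 5534) and 380 to 6963 CPM in the second (median 2040), so the sums overlapped.

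Depth and complexity moved with the groups. Mki67/Top2a+ cells had 876258 to 2210211 gene reads (median 1466148) and the others 623183 to 2047398 (median 1209300). Detected genes numbered 2061 to 4893 (median 3327.5) against 1387 to 4905 (median 2467), and 16 of the 18 cells lay above the median of the others. The gap remained when every cell was thinned to 623183 reads, with medians of 2868 and 2195.5 genes. After that thinning the mitotic genes numbered 3 to 79 (median 27.5) against 2 to 21 (median 7), and the same number of cells, 10, lay above all others. Over the 115 genes chosen for naming, thinning lowered the number of cells with the gene by at most 3 in the first group and 8 in the second. The share of mitochondrial reads was 2.18% to 10.1% (median 4.23%) against 1.55% to 18.9% (median 4.99%). Over all 68 cells mitotic genes and detected genes had a Spearman rho of 0.72, and of 0.58 within the Mki67/Top2a- cells alone, a description of cells that share their depth. Whether a larger or more complete RNA sample or cell division itself sets the higher number of detected genes was not tested.

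**Figure D2:**
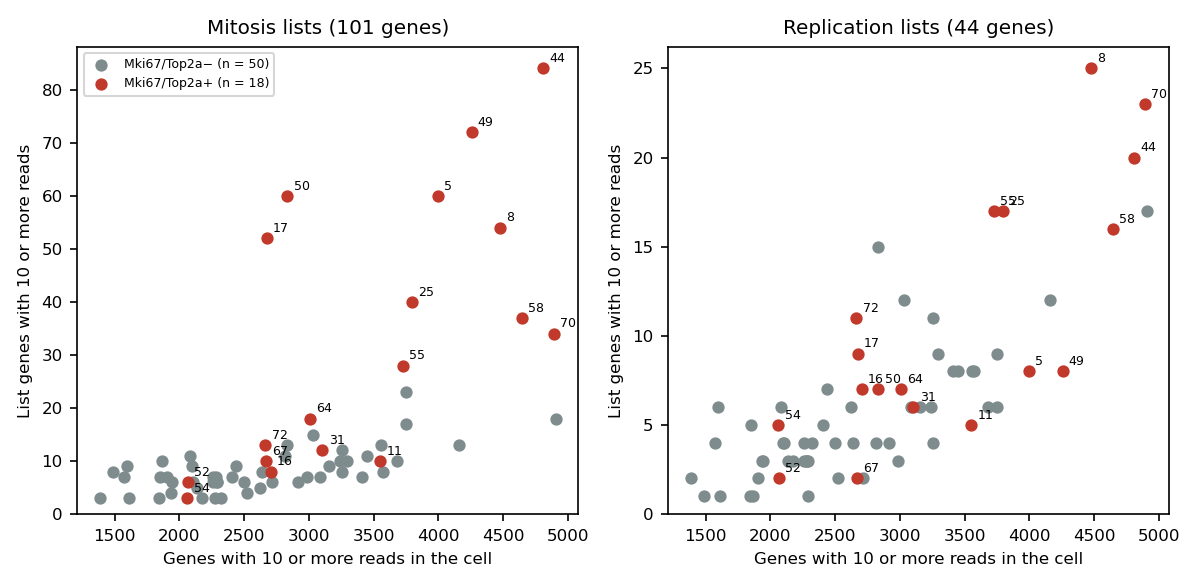
Number of list genes with 10 or more reads in a cell (left, 101 mitotic genes; right, 44 replication genes) against all genes with 10 or more reads in that cell, in 18 Mki67/Top2a+ cells (red, numbered) and 50 Mki67/Top2a- cells (grey). On the left, 10 red cells lie above every grey cell, and on the right 3 do.

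The 10 cells were not alike in which transcripts they held. The plot of list genes shows cells 17, 5, 50 and 49 high for mitosis and inside the range of Mki67/Top2a- cells for replication: they held 52 to 72 mitotic genes and only 7 to 9 of 44 genes of replication licensing and the replication fork. Cells 8, 25, 44, 55, 58 and 70 held 28 to 84 mitotic and 16 to 25 replication genes. Of these, cells 25, 55 and 58 also lay inside the Mki67/Top2a- range of 1 to 17 replication genes, and cells 8, 44 and 70 above it. Detected genes numbered 2673 in cell 17, 2834 in cell 50, 3996 in cell 5 and 4255 in cell 49. In the second set they ranged from 3727 (cell 55) to 4893 (cell 70). The part of detected genes in this split was not tested. Ccnb1, the B-type cyclin that drives entry into mitosis, was detected in cells 49 (870 CPM), 50 (765 CPM), 5 (464 CPM), 44 (420 CPM), 17 (407 CPM) and 25 (102 CPM) and in no Mki67/Top2a- cell. Cdc20, the activator of the anaphase-promoting complex that ends mitosis, was detected in 5 of these 6 cells, from 17.6 CPM in cell 5 to 268 CPM in cell 49. Neither gene was detected in cells 8, 55, 58 or 70. Plk1 and Aurka, kinases that build the mitotic spindle, were detected in cells 44 and 49 alone. Rrm2, the ribonucleotide reductase subunit that is made for S phase, was detected in cells 70 (725 CPM), 58 (57.6 CPM) and 25 (19.2 CPM), and in 1 Mki67/Top2a- cell. Cell 25 was the one cell with both Ccnb1 and Rrm2. These genes were chosen after their values were seen, and each cell is a single library, so a gene at 0 may also have been missed in it.

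All other genes were then compared. Genes with 10 or more reads in at least 8 kept cells were taken, 6779 without the rule genes, and each was set against a size rule: the difference between the group means of log2(CPM + 1), and the same difference with detected genes per cell held fixed in a least squares fit (the adjusted difference), both had to reach 1.5 in the same direction. In all, 298 genes passed (4.40% of those tested), of which 278 were higher in Mki67/Top2a+ cells (4.10%) and 20 were lower (0.295%). The groups come from the same reads as these values, so the shares are descriptions. The counts moved widely with the settings: a pseudocount of 10 CPM gave 34 higher and 3 lower, cells matched on detected genes 499 and 286, and log2 ratios of summed reads 531 and 667. Matched cells and summed reads had to reach 1.5 in a single difference, without the adjusted one. The plain difference alone gave 827 higher (12.2%) and 22 lower (0.325%), and the adjusted difference alone gave 294 higher (4.34%) and 245 lower (3.61%), so the balance of directions moved with detected genes. Over all genes the median difference was 0.46 plain and -0.04 adjusted. The rule carries no error rate. The spread between cells of a group was wide, with a median SD of 2.75 over all genes, and the adjusted difference exceeded its own SD in 22 of the 278 higher genes and in 0 of the 20 lower ones. Of those 22, 12 were mitotic genes.

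Mitotic genes led the higher genes. Of 101 listed, 40 were tested and 32 of these were higher, with none lower, where 4.10% of all genes were higher. The lists were written with earlier results in view, and a mitotic gene that other cells lack entered the comparison only when 8 Mki67/Top2a+ cells held it, so that it had to differ. The remaining 61 mitotic genes were detected in too few cells. Of these, 57 were detected in at least 1 Mki67/Top2a+ cell and 22 in at least 1 Mki67/Top2a- cell. Across the whole list, 39 genes were detected in Mki67/Top2a+ cells and in no other cell, and 4 in no kept cell. Of the 44 replication genes, 4 were detected in Mki67/Top2a+ cells alone. The share of all genes found only in these cells was not counted, so the 39 are a description. In the median, the 32 higher genes were detected in 8 of the 10 cells with both rule genes and in 1 of the 8 cells with a single one.

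Among cyclins and kinases, all 5 genes tested of 21 were higher, with a median difference of 3.01 (2.44 adjusted). Cdk1, the kinase that starts mitosis with cyclin B, had 0 to 928 CPM in Mki67/Top2a+ cells (median 0.885) and at most 27.6 CPM in the others. It was detected in 8 of 18 cells (44.4%, exact 95% interval 21.5% to 69.2%), all with both rule genes, and in 1 of 50 (2.0%, 0.0506% to 10.6%), with a difference of 3.01 (2.44 adjusted). Ccnb2, the second B-type cyclin, was detected in all 10 cells with both rule genes, in none with a single one, and in 4 of 50 others. Its median was 29.9 CPM against 0, its highest values 1559 and 1240 CPM, and its difference 3.64 (2.73 adjusted), so high single cells occurred in both groups. Cks1b, a small subunit of cyclin-dependent kinases, was detected in 11 of 18 and 4 of 50 cells (difference 3.59, adjusted 2.69). Bub1b, a spindle checkpoint kinase, was detected in 7 of 18 and 1 of 50 cells (difference 2.24, adjusted 1.69).

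Spindle genes were higher in 8 of 9 tested of 29 (median difference 3.10, adjusted 2.57). Tacc3, which stabilises spindle microtubules, had 0 to 704 CPM (median 25) in Mki67/Top2a+ cells and at most 6.44 CPM in the others. It was detected in 9 of 18 cells and in 0 of 50, which allows a share of up to 6.0% at 3 counts and 7.11% by the exact interval, and differed by 4.01 (3.36 adjusted). Kif15, a spindle motor protein, was detected in 10 of 18 cells and in 0 of 50, with a median of 30.8 CPM and a difference of 3.60 (3.12 adjusted). Stmn1, which takes microtubules apart, was detected in more Mki67/Top2a+ cells than the other spindle genes named, in 15 of 18 cells (median 224 CPM) and in 17 of 50 (median 0.593 CPM), with a difference of 4.47 (3.07 adjusted). Ckap5, a microtubule polymerase, differed by 3.19 (2.75 adjusted). Kif23, a motor protein of cytokinesis, was the spindle gene that missed the rule, at 1.89 plain and 0.70 adjusted, and was detected in 12 of 18 and 24 of 50 cells.

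Centromere and kinetochore genes were higher in 10 of 11 tested of 26 (median difference 2.61, adjusted 2.06). Cenpe, the kinetochore motor that aligns chromosomes, had the largest adjusted difference of the genes past the rule. Its level was 0 to 1239 CPM (median 59.7) in Mki67/Top2a+ cells and at most 50.6 CPM in the others, and it was detected in 10 of 18 (55.6%, 30.8% to 78.5%) and 1 of 50 cells (difference 4.36, adjusted 3.66). Cdca8, which encodes borealin of the chromosomal passenger complex, was detected in 9 of 18 and 0 of 50 cells (difference 3.68, adjusted 3.07). Cenpf, a kinetochore protein of late G2, was detected in 9 and 3 cells (3.08, adjusted 2.46), and Cenpa, the centromeric histone, in 9 and 2 (2.83, adjusted 2.28). Cenpn missed the rule on its adjusted difference of 1.21.

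Genes of chromosome condensation and cohesion included transcripts found in most cells: 9 of 15 tested of 25 were higher (median difference 2.43, adjusted 1.71). Pttg1, which encodes securin, the inhibitor of separase, was detected in 10 of 18 and 5 of 50 cells and differed by 3.18 (3.19 adjusted). The cohesin subunit Rad21 was detected in 13 of 18 cells (median 306 CPM) and in 17 of 50 (median 1.85 CPM), with a difference of 3.11 (2.59 adjusted). The condensin genes Smc2 (3.32, adjusted 2.32) and Ncaph2 (2.36, adjusted 2.13) were higher too. Hmgb1, an abundant chromatin protein, was detected in 18 of 18 and 47 of 50 cells, with medians of 391 and 88.3 CPM, and did not reach the rule at 1.83 plain and 1.10 adjusted. H2az1, a histone variant made throughout the cycle, was detected in every cell and differed by 0.37 (0.27 adjusted). The heat map shows these genes as a block in the cells at its left, with scattered high values elsewhere.

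**Figure D3:**
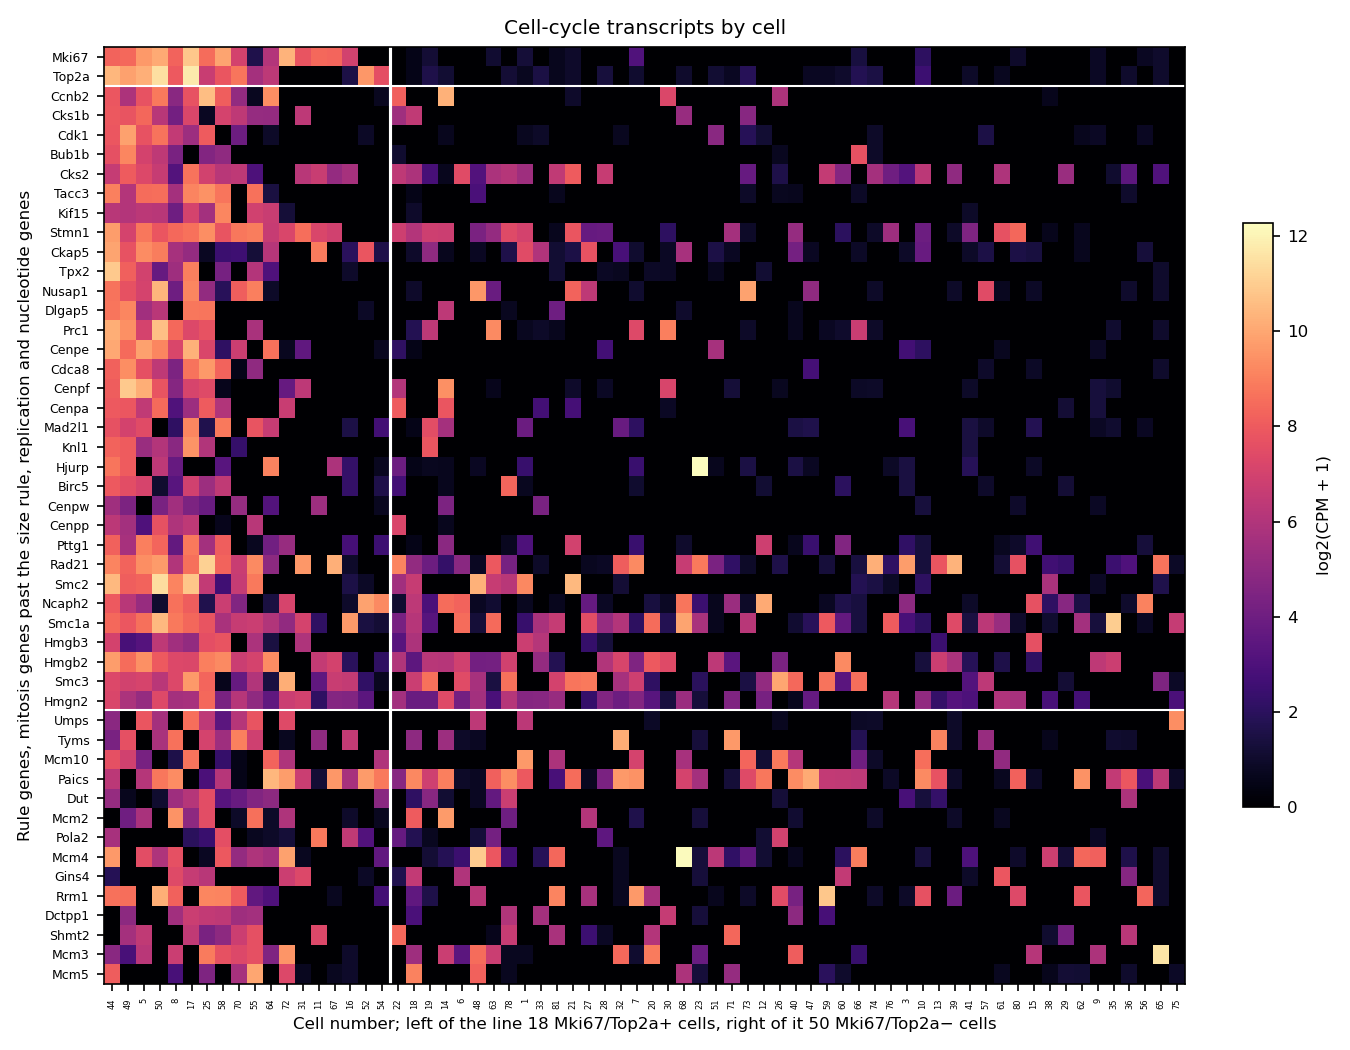
Level of each gene (rows) in each kept cell (columns) as log2(CPM + 1), the cells ordered within each group by their number of detected mitotic genes. From the top the rows are Mki67 and Top2a, the 32 mitotic genes past the size rule, and the 14 tested replication and nucleotide genes with the largest adjusted difference. The 18 Mki67/Top2a+ cells stand left of the vertical line, and the mitotic rows are bright mostly in the first 11 of them.

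Because mitotic genes moved together, their promoters were read from the RefSeq promoter table (GRCm38.p6, windows from 250 bases before to 50 bases after each start). Only the 250 bases before the start were searched, on both strands. The letters searched were TTTGAA (the core of the CHR element), CCAAT, and TTTCGCGC or TTTGGCGC (an E2F site). The windows below show the 150 bases before the annotated start of Mki67 and Top2a, of the mitotic genes Cdk1, Cks1b, Kif15 and Tacc3, and of the replication gene Mcm3 for contrast, 5′ to 3′ on the gene's strand, with matches in capitals on whichever strand they lie.
Mki67 (chr7:135716380-135716529, minus strand): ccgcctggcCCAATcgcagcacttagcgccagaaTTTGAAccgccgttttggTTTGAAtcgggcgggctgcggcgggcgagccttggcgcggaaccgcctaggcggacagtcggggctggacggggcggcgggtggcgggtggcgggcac
Top2a (chr11:99024190-99024339, minus strand): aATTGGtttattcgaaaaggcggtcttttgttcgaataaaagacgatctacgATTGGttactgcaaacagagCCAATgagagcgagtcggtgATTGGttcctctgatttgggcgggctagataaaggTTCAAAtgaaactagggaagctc
Cdk1 (chr10:69352913-69353062, minus strand): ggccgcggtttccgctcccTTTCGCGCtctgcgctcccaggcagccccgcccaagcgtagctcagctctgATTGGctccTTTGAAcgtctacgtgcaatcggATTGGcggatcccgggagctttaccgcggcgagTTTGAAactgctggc
Cks1b (chr3:89418292-89418441, minus strand): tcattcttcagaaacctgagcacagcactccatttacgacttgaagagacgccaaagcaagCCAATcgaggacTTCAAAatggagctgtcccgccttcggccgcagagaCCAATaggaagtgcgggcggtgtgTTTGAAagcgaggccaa
Kif15 (chr9:122950931-122951080, plus strand): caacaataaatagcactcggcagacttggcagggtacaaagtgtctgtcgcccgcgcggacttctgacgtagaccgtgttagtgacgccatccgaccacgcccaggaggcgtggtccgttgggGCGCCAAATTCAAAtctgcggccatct
Tacc3 (chr5:33657978-33658127, plus strand): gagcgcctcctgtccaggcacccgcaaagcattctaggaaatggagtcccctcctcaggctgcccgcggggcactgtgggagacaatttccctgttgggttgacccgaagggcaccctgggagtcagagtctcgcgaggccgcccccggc
Mcm3 (chr1:20820313-20820462, minus strand): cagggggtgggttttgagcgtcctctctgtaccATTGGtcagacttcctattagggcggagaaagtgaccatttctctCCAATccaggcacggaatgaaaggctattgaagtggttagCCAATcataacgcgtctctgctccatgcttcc
Mki67, Top2a, Cdk1 and Cks1b hold both the CHR core and CCAAT in this stretch, Cdk1 with an E2F match as well. Kif15 holds the CHR core beside an E2F match, Mcm3 holds CCAAT alone, and Tacc3 holds none of these letters, although it was among the most restricted transcripts. Over all the bases searched the CHR core was found in 34.5% of the 29 windows matched to 28 of the 32 higher mitotic genes. It was found in 10.8% of windows of all genes tested and 16% of all 32851 windows. CCAAT was found in 62.1%, 34.8% and 33.8% of them, and both together in 31%, 4.12% and 5.55%. The whole list of mitotic genes, tested or not, gave nearly the same shares over 92 windows: 33.7% for the CHR core, 64.1% for CCAAT and 26.1% for both. The 265 windows of all higher genes held the CHR core in 18.1% and both elements in 9.43%. In the 43 windows of replication genes the CHR core was found in 14%, CCAAT in 60.5% and the E2F letters in 16.3%. The E2F letters were found in 6.9% of windows of the higher mitotic genes, 1.3% of those of all genes tested and 0.654% of all windows. A match is a run of letters and no measure of binding.

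Replication genes differed less than mitotic genes between groups that Mki67 and Top2a had set. A split by these rule genes may itself favour mitotic genes. Some tested mitotic genes, such as Tacc3 and Kif15, also entered the comparison only through Mki67/Top2a+ cells. The contrast is therefore a description. Cells of the first group held 2 to 25 of the 44 genes (median 8) and the others 1 to 17 (median 4), and 3 cells exceeded all others. Thinned to equal depth, the numbers were 2 to 25 (median 6) against 1 to 13 (median 4), and 6 cells exceeded all others. Of 24 replication genes tested, none passed the size rule, where 4.40% of all genes did, so the count says little. The 10 licensing genes had a median difference of 1.39 (0.88 adjusted) and the 14 fork genes 0.88 (0.16 adjusted). Most of these genes, 38 of 44, were detected in at least 1 Mki67/Top2a- cell.

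Mcm4, a subunit of the replicative helicase, was detected in 10 of 18 and 10 of 50 cells (difference 1.72, adjusted 1.11), and its highest value, 4753 CPM, was in a Mki67/Top2a- cell. Mcm3, of the same helicase, was detected in 10 and 11 cells (1.96, adjusted 0.90). Pcna, the clamp that holds the polymerase on DNA, was detected in 12 and 22 cells and differed by 1.53 plain and 0.27 adjusted. Nucleotide supply gave 2 higher genes among 10 tested (median difference 1.71, adjusted 1.0), where 4.10% of all genes were higher. Tyms, thymidylate synthase, was detected in 10 of 18 and 6 of 50 cells (2.67, adjusted 1.55), and Umps, the last enzyme of UMP synthesis, in 9 and 3 (2.69 plain and adjusted). The call of Tyms ended when any 1 of 20 cells was left out. Rrm1, the large subunit of ribonucleotide reductase, did not pass (1.90, adjusted 1.06). Of 72 histone genes of the replication-dependent families and their relatives, 50 were detected in no kept cell and 2 were tested, neither past the rule.

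Genes that decide on entry into the cycle gave no call, in lists too short to read that against the 4.40% of all genes called. None of 10 tested G1 cyclin, E2F and RB genes and none of 17 tested CDK inhibitor and quiescence genes passed, with median adjusted differences of -0.31 and -0.22. Ccnd2, the D-type cyclin with the highest mean CPM per kilobase here, was detected in 17 of 18 and 48 of 50 cells, at medians of 1083 and 1462 CPM (difference -0.13, adjusted -0.23). Ccnd1 was detected in 2 and 5 cells, too few to be tested, and Ccnd3 in 8 and 15 (0.72, adjusted -0.49). Cdkn1a, the p53 target p21, was detected in 16 of 18 and 39 of 50 cells, at medians of 152 and 131 CPM (0.30, adjusted 0.25). Cdkn1b, the quiescence inhibitor p27, was detected in 5 of 18 and 19 of 50 cells (-0.50, adjusted -1.49), which did not pass. Cells with high Cdkn1a occurred in both groups, up to 1653 and 3260 CPM. None of 8 tested DNA repair genes passed.

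Median differences of growth and energy lists fell when detected genes were held fixed, as did that of all genes (0.46 plain, -0.04 adjusted). Detected genes moved with the groups, and what lay behind the fall was not tested. The Myc and ribosome biogenesis list had a median difference of 0.97 plain and 0.02 adjusted over 24 genes, and oxidative phosphorylation 0.96 and 0.05 over 32. Myc itself was detected in 2 of 18 and 7 of 50 cells (0.12, adjusted -0.31). Its partner Max (2.72, adjusted 2.22) and the ribosome biogenesis factor Nop58 were among 4 higher genes of the list, where 4.10% of all genes were higher. Nop58 was detected in 16 of 18 and 16 of 50 cells, with medians of 49.5 and 0.800 CPM (3.59, adjusted 3.01). Nop56 (1.92, adjusted 1.53) and Ran, the GTPase of nuclear transport (2.50, adjusted 1.53), were the other 2, and their calls ended when any 1 of 27 and of 25 cells was left out. Pgk1 of glycolysis (2.70, adjusted 1.67) and Uqcrfs1 of respiratory complex III (2.39, adjusted 1.75) were each the single higher gene of their list, of 15 and 32 tested. As 4.10% of all genes were higher, these counts say little about either list.

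**Figure D4:**
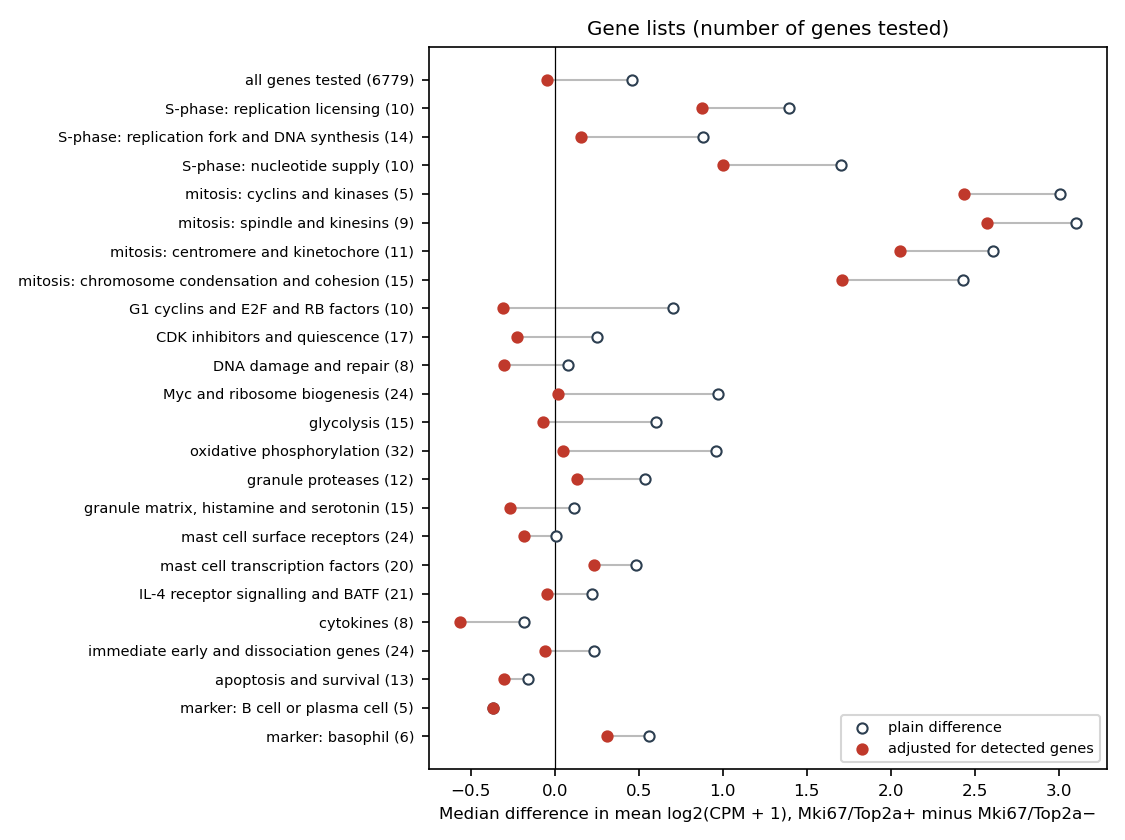
Median difference between Mki67/Top2a+ and Mki67/Top2a- cells in mean log2(CPM + 1) for each list with at least 5 genes tested, plain (open) and adjusted for detected genes (filled). The 4 mitotic lists lie between 1.71 and 2.57 adjusted, and lists such as oxidative phosphorylation fall from 0.96 to 0.05 on adjustment.

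Most higher genes, 235 of 278, were on no list. In the median a higher gene was detected in 11 of 18 and 13 of 50 cells, so few were restricted: 36 were detected in at most 3 Mki67/Top2a- cells, and 16 of those were S-phase or mitotic genes. Cit, which encodes citron kinase of the cytokinetic midbody, was on no list and was detected in all 10 cells with both rule genes, in 1 with a single one and in 2 of 50 others. Its levels were 0 to 439 CPM (median 77.3) and at most 236 CPM, and it differed by 4.03 (3.27 adjusted). Ripk3, the kinase of necroptosis, had the third largest adjusted difference, with medians of 110 and 0 CPM, yet its highest values were 1163 and 1360 CPM and it was detected in 12 of the 50 other cells (3.80, adjusted 3.36). Nbr1, an autophagy receptor, was detected in 9 and 5 cells (3.08, adjusted 2.98), and in 5 of the 8 cells with a single rule gene. Oga, which removes O-GlcNAc from proteins, was detected in 13 and 13 cells (3.25, adjusted 2.94), and its highest value, 3431 CPM, was in a Mki67/Top2a- cell. Lhfp was detected in 12 and 14 cells (2.52, adjusted 2.88).

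The mast cell programme was present in both groups, with overlapping levels. Of 24 mast cell surface receptors tested, none passed the size rule (median difference 0.01, adjusted -0.18). As 4.40% of all genes passed, that count says little about the list. Kit, the stem cell factor receptor, was detected in 18 of 18 and 49 of 50 cells, at medians of 1956 and 2026 CPM and ranges of 138 to 8593 and 4.87 to 9542 CPM (difference -0.01, adjusted -0.19). Fcer1a, the alpha chain of the IgE receptor, was detected in every cell, at medians of 7310 and 5419 CPM (0.44, adjusted 0.36). Il1rl1, which encodes the IL-33 receptor ST2, had medians of 1095 and 1716 CPM (-0.54, adjusted -0.57). The proteins of Kit and Il1rl1 were gates of the sort.

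Granule genes overlapped over most of their range. Cpa3, mast cell carboxypeptidase, had medians of 18092 and 17664 CPM (difference 0.16, adjusted 0.07), and Hdc, which makes histamine, 8221 and 8552 CPM (0.34, adjusted 0.33). The mucosal proteases Mcpt1 (1.44, adjusted 1.11) and Mcpt2 (-0.29, adjusted -0.82) did not pass, and their reads may be split among near-identical genes. Tpsb2, a tryptase, was the 1 lower gene of 12 granule proteases tested, where 0.295% of all genes were lower. Its medians were 391 and 1610 CPM and its highest values 15226 and 53964 CPM (-1.85, adjusted -2.02). It fell short of the rule when cell 5 or cell 8 was left out. Among transcription factors Gata2 had medians of 1885 and 2501 CPM (-0.26, adjusted -0.23), and Gata1 (1.81, adjusted 1.79) and Ikzf1 (2.63, adjusted 1.77) were the 2 higher of 20 tested, where 4.10% of all genes were higher. Ikzf1 stood at -0.029 as a log2 ratio of summed reads and fell short of the rule without cell 54. Gata1 was detected in 7 of the 10 cells with both rule genes and 7 of the 8 with a single one. Its adjusted difference was -0.54 when cells with both rule genes were compared with Mki67/Top2a- cells, those with a single one left out.

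None of the 21 genes tested on the list of the IL-4 receptor, its signal transducers and BATF passed, where 4.40% of all genes did, so the count says little about the list. Il4ra was detected in 9 of 18 and 20 of 50 cells (0.29, adjusted -0.12), and Irf4 in 3 and 6 (0.22, adjusted -0.12). Batf, the AP-1 factor downstream of the receptor, was detected in 12 and 36 cells at medians of 107 and 123 CPM, and its adjusted difference of -1.64 stood beside a plain one of -0.77, so it did not pass. Il4 was detected in 14 and 40 cells at medians of 168 and 128 CPM (-0.14, adjusted -0.86), and Il13 in 3 and 9 (-0.23, adjusted -0.24). Il9, the cytokine that gives MMC9s their name, was detected in cell 67 alone, at 744 CPM, a cell with Mki67 and no Top2a read.

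Il6 was the 1 lower cytokine gene of 8 tested, where 0.295% of all genes were lower. It was detected in 13 of 18 cells (72.2%, 46.5% to 90.3%) and 38 of 50 (76%, 61.8% to 86.9%), so it was present about as often, and its medians were 120 and 637 CPM. The highest cells had 3787 and 6195 CPM, and the difference was -1.60 (-2.46 adjusted). Leaving out any 1 of 7 cells brought it under the rule. The plot of mast cell genes shows the groups overlapping over most of the range for Il6 as for the other genes.

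**Figure D5:**
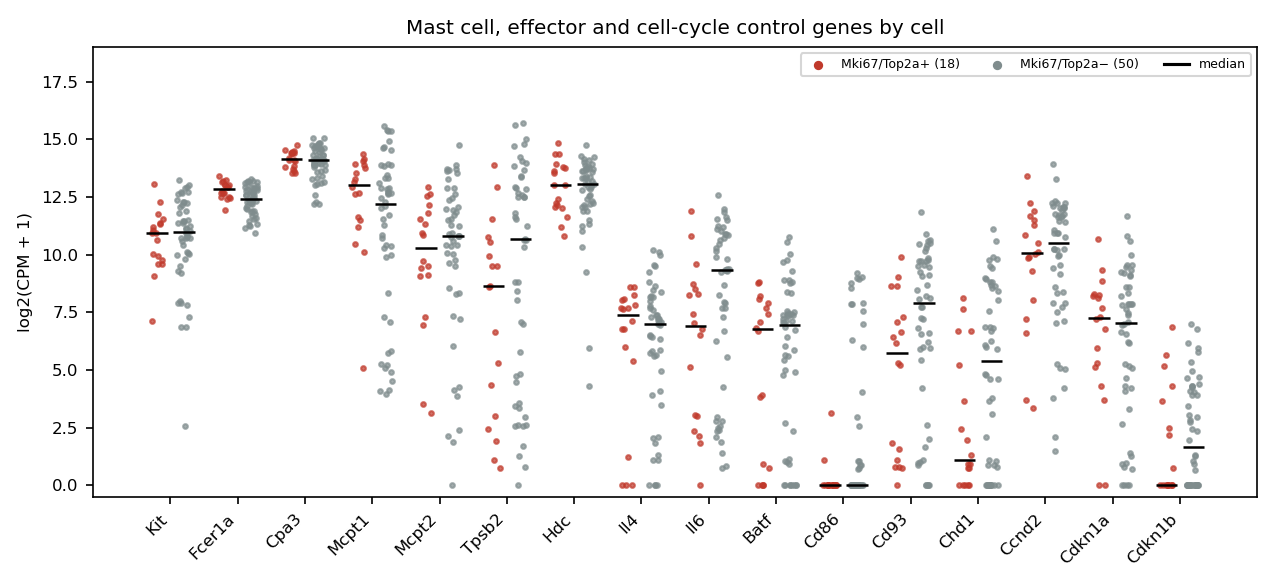
Level of 16 genes in each of 18 Mki67/Top2a+ cells (red) and 50 Mki67/Top2a- cells (grey) as log2(CPM + 1), with the median of each group as a black bar. Kit, Cpa3 and Hdc have like medians, Tpsb2 and Il6 have lower medians in the red cells, and every Cd86 value in the red cells is under 10 reads.

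The lower genes formed a short list. Cd86, a costimulatory ligand for T cells, was detected in 0 of 18 cells, which allows a share of up to 16.7% at 3 counts and 18.5% by the exact interval, and in 15 of 50 (30%, 17.9% to 44.6%), where it reached 588 CPM (difference -2.14, adjusted -3.02). Shprh, a ubiquitin ligase of DNA damage tolerance, was detected in 0 and 12 cells (-1.82, adjusted -2.56). Cd86 and Shprh entered the comparison only through Mki67/Top2a- cells, so they could only come out lower, and their values are descriptions. Ppp1r12a, the targeting subunit of myosin phosphatase, had the lowest adjusted difference of the genes past the rule, -3.25, beside a plain one of -1.54, and missed the rule when any 1 of 29 cells was left out. The chromatin remodeller Chd1 was detected in 6 of 18 and 31 of 50 cells (-2.25, adjusted -3.08), and the chaperone Dnajb6 in 8 and 37 (-2.08, adjusted -2.56).

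Cd93, a surface glycoprotein of myeloid and endothelial cells, was detected in 11 of 18 and 38 of 50 cells, at medians of 54 and 239 CPM (-1.88, adjusted -2.51). Xylt1, the enzyme that links xylose to proteoglycan cores, was detected in 1 and 13 cells (-1.75, adjusted -2.20), and Sox5 in 5 and 19 (-1.53, adjusted -2.47), a call that any 1 of 29 cells ended when left out. None of the 20 lower genes had an adjusted difference above its SD between cells.

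Among markers of other cell types no gene passed the rule, where 4.40% of all genes did and few markers were tested per list. Levels of the markers differed between lists. Eosinophil, neutrophil, epithelial and erythroid lists had no gene that could be tested, and 7 of 10, 9 of 10, 18 of 22 and 7 of 8 of their genes were detected in no kept cell. Summed T cell markers ranged from 0 to 1718 CPM (median 35.4) in Mki67/Top2a+ cells and from 0 to 1670 CPM (median 4.78) in the others, with Cd4, Cd8a, Trbc1 and Trbc2 without a read. Cd3e, a subunit of the T cell receptor complex, was detected in 12 of 18 and 18 of 50 cells (1.46, adjusted 0.44). Macrophage and monocyte markers summed to 20.1 to 2137 CPM (median 827) and 3.08 to 5326 CPM (median 965), mostly from Cx3cr1, with 9 of 16 genes detected in no cell. Markers of progenitors, mostly Cd34, summed to 399 to 2973 CPM (median 1470) and 36.2 to 5416 CPM (median 1104). The part of these transcripts in the differences was not tested.

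The bulk libraries, which took no part in the choice of cells, gave the same genes in pools of 3 genotypes, with 1 library each and no replicate check. In the WT library Mki67 had 161 reads (exact Poisson 95% interval 137 to 188), in the IL4raY709F library 83 (66.1 to 103) and in the IL4ra-/- library 331 (296 to 369), from totals of 2299793, 2521791 and 2330628. Smc2 had 65, 39 and 126 reads, Tacc3 28, 14 and 48, and Stmn1 40, 19 and 72. Of the 32 higher mitotic genes, 29 had at least 20 reads over the libraries, and 4 of these lay above WT in IL4raY709F (median log2 ratio -0.57) and 25 in IL4ra-/- (median 0.62). All genes tested in the cells had medians of 0.03 and -0.08, and the 242 measured higher genes on no mitotic list had 0.03 and -0.04. The 2-fold limit with 50 reads was passed by 1 of 10 mitotic genes, lower in IL4raY709F, where 1.31% of all genes were called higher and 0.338% lower, and by 0 of 11 in IL4ra-/-, where 0.969% were called higher and 1.10% lower. Both comparisons share the WT library. The markers of macrophages and monocytes moved the same way, with medians of -0.80 and 1.85 over 16 genes. Dendritic cell markers had medians of -0.24 and 1.40 over 5 measured genes. Igha, an immunoglobulin gene, had 8453 reads in WT, 3748 in IL4raY709F and 17406 in IL4ra-/-. Cd3e lay above WT in both (log2 ratios 0.36 and 0.79). The part of other cell types was not tested. In these pools the number of dividing cells, the level of each transcript per cell and the share of other cell types cannot be told apart.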

How the data were processed

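RNA-seq of 81 single WT MMC9s and 3 bulk libraries was used. HISAT, and featureCounts of Subread 2.0.0, are named in the submitters' processing notes. Raw read counts per gene were deposited by the authors, without normalization. Builds GRCm38 and mm9 are named without roles, and 54851 of 55144 matched gene IDs (99.5%) had GRCm38 coordinates of GENCODE M21. Whether strand, multiply mapped reads or molecular identifiers were considered is not given in the sources used, so overlapping, antisense and near-identical genes are uncertain, and intervals cover counting error only. No doublet caller was run.

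Counts were scaled to CPM by total gene reads, and log2(CPM + 1) was compared as described, with a size of 1.5 and no p-value. A count of 10 reads was worth 4.52 to 16 CPM. Bulk CPM used TMM factors (edgeR 4.0.16). Scripts used Python 3.11.15 and R 4.3.3 and were tested on simulated data. Alternatives are listed in the closing section.

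The cells, lists, size rule and named genes were chosen with earlier results of these data known. Named genes are 20 fixed ones, the 12 highest and 12 lowest adjusted differences past the rule, and for each list up to 4 past it and the 2 most abundant others.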

Additional observations from a re-analysis of the deposited data

How the results depend on the processing

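The number of genes past the rule depended on the settings. The 278 higher and 20 lower genes became 34 and 3 with a pseudocount of 10 CPM, and 171 and 12 among genes detected in at least 20 cells. With cells that had both rule genes against Mki67/Top2a- cells, and cells with a single one left out, they numbered 572 and 59. They became 499 and 286 with 18 Mki67/Top2a- cells matched on detected genes, 531 and 667 as log2 ratios of summed reads, 665 and 131 at a size of 1, and 97 and 4 at a size of 2. Matched cells and summed reads used a single difference of 1.5, without the adjusted part of the rule. The plain difference alone gave 827 higher. Lower genes numbered 31 at 5 reads of a rule gene, 32 with TMMwsp scaling and 12 with the read minimum alone. Leaving out each cell in turn gave 265 to 303 higher and 18 to 34 lower genes, with 31 or more lower without cell 8, 11, 44, 55 or 70. The other settings moved neither count by over 1.5 times. Summed reads give more weight to high cells, a matched subset holds fewer cells, and a limit on size or detection changes how many genes can pass. What moved the counts was not tested for any setting.

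Of the 32 higher mitotic genes, 10 were still past the rule with a pseudocount of 10 CPM, 8 among genes in at least 20 cells, 21 at a size of 2 and 27 to 32 elsewhere. Their list medians rose with cells of both rule genes, to 4.99 (cyclins and kinases), 4.53 (spindle), 4.53 (kinetochore) and 3.19 (condensation). Gata1 turned to -0.54 under that setting and Ikzf1 to -0.029 with summed reads. The median of all genes shifted by -0.12 with TMMwsp, -0.26 with the larger pseudocount, 0.32 with cells of both rule genes, -0.34 with matched cells and -0.44 with summed reads. Among the 45 named genes past the rule, leaving out a single cell ended the call of Birc2, Bub1b, Gata1, Ikzf1, Il6, Nop56, Pgk1, Ppp1r12a, Ran, Sox5, Tpsb2, Tyms or Uqcrfs1. Calls of genes not named were not followed one by one. No paired analysis was possible because the cells form 1 sample and no test was made.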
